A study of Mus musculus with 8 samples.

Results

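The Greatwall kinase gene *Mastl*, the genes of its substrates *Ensa* and *Arpp19*, 5 subunit genes of protein phosphatase 2A (PP2A) and 2 catalytic subunit genes of protein phosphatase 1 (PP1) were followed in polysome profiles of mouse oocytes. These 10 genes were taken by symbol from a table of 25574 genes, and all 10 had a row. The table held 8 libraries, 4 of a non-polysomal (NP) and 4 of a polysomal (P) dataset. All oocytes came from 8 weeks old CD1 mice that had been primed with pregnant mare serum gonadotropin and were used 46 h later. They were isolated in the germinal vesicle stage with the meiotic block IBMX and then cultured without it for 180 min. Oocytes that had undergone nuclear envelope breakdown (NEBD) were selected earlier in this culture. At its end they were kept for 10 min with cycloheximide (0.1 mg/ml), which holds ribosomes on mRNA. No group differed in genotype or treatment. Each profile pooled 200 oocytes, and 10 fractions were collected from its sucrose gradient. The NP dataset pooled fractions 2 to 5, with the ribosomal subunits, monosomes and stored maternal mRNA particles. The P dataset pooled fractions 6 to 10, with polysomes. The top fraction of the gradient was left out, and the authors could not fully exclude that it held some stored particles. How many animals stood behind a profile was not given in the sources used here.

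Greatwall is a kinase of the meiotic and mitotic cell cycle that acts beside cyclin-dependent kinase 1 (CDK1). It phosphorylates the small proteins ENSA and ARPP19, which then bind and inhibit PP2A carrying a B55 regulatory subunit, the phosphatase that removes CDK1-dependent phosphates. PP1 is known to take part in the reversal of this switch at mitotic exit, and the Greatwall pathway is known to act as mouse oocytes pass through meiosis. PP2A is a trimer of a scaffold, a catalytic and a regulatory subunit, and each of these parts has more than 1 gene.

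The serine that Greatwall phosphorylates lies in a stretch that ENSA and ARPP19 share. The coding sequence around its codon, read from the GRCm38 genome with the GENCODE annotation, is given below with the serine codon in capitals, because this site joins both substrates to the kinase.
Ensa: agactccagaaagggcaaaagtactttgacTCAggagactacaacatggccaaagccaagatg
Arpp19: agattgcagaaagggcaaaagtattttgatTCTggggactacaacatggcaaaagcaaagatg
The *Ensa* codon lies at chr3:95628556-95628558 on the plus strand, in exon 3 of 4 of the transcript used. The *Arpp19* codon lies at chr9:75056650-75056652 on the plus strand, in exon 4 of 4. Both printed runs cross an exon junction, so that they occupy chr3:95626860-95628588 and chr9:75052341-75056682 with an intron between. The runs were identical in 55 of 63 bases (87.3%), against 72.1% of 351 aligned bases for the whole coding sequences, whose longest identical stretch was 20 bases. Of the translated residues 75.2% were identical. The other paralogs were closer at the protein level. *Ppp2ca* and *Ppp2cb* shared 97.4% of residues and 81.7% of coding bases, *Ppp2r2a* and *Ppp2r2d* 89.9% and 77.6%, and *Ppp1ca* and *Ppp1cc* 90.3% and 78%. No identical stretch between these pairs exceeded 44 bases, the one of *Ppp1ca* and *Ppp1cc*.

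The values are FPKM, fragment counts scaled to gene length and to the reads of a library, so they can be set against each other between genes. Since each pool was amplified on its own, an FPKM gives the level of an mRNA within its pool and not the split of its molecules between polysomes and the rest. In pools of 200 oocytes, fewer oocytes with an mRNA and less of it per oocyte cannot be told apart. The steps of the low values gave back the number of reads by which each library had been scaled. It was 1299377 to 7594637 in NP and 2677946 to 4699328 in P, with 11703 to 13753 and 9139 to 11339 genes above 0. All 9 oocyte markers searched were present. Their summed FPKM was 5042 to 10371 in NP and 7092 to 35492 in P. Of 9 granulosa and cumulus markers, *Foxl2*, *Inhba* and *Amhr2* were at 0 in all 8 libraries and only *Cyp19a1* and *Nr5a2* had a mean above 1. The summed level of the 9 was 15.3 to 93.9 in NP and 2.38 to 64.0 in P, and its part in the results was not tested. Each of the 4 blood markers in the table was at 0.

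None of the 10 genes differed between P and NP in limma's moderated test on log2(FPKM + 1) at an adjusted p of 0.1. None had an unadjusted p below 0.05 in this fit, which did not pair libraries. With a block for the replicate number, *Ppp1ca* alone had one (0.00966 by limma, adjusted 0.326). So did 1734 of all 14292 genes in that fit, 1618 of them higher in NP. Among all 14292 genes tested in the unpaired fit, 0.021% passed the first threshold, 3 genes higher in NP and 0 higher in P. The second was passed by 9.95%, made up of 9.47% higher in NP and 0.476% higher in P. These are 1354 and 68 genes, and the split depended on the scaling, being 578 and 364 after quantile normalization and 177 and 2719 after median centring. The P and NP libraries overlapped for every 1 of the 10, while they did not overlap for 6.28% of all genes. Log2 fold changes (P over NP) lay between −1.64 for *Ensa* and 0.82 for *Ppp2r1a*, with 5 above and 5 below 0 and a median of −0.05. Of all genes, 28.6% were above 0 and the median was −0.39. The 2 other scalings moved the median of all genes to −0.02 (quantile normalization) and 0.57 (libraries centred on their median), and then 6 and 7 of the 10 were above 0. After median centring, 2896 of all 14292 genes had an unadjusted p below 0.05 by limma, 2719 of them higher in P. Among these were 3 of the 10 genes, all higher in P. They were *Ppp2r1a* (log2 fold change 1.78), *Ppp2cb* (1.27) and *Ppp1cc* (1.49), and their adjusted p-values were 0.122 to 0.247. This centring adds the same amount to the fold change of every gene. *Ppp2cb* was at 0 in P2 and P4, and 12 was its highest recovered read count in a library. The 95% confidence intervals were wide, the narrowest for a gene with a mean above 1 FPKM running from −0.80 to 1.85 (*Ppp1cc*). Those of *Ensa* (−3.63 to 0.34) and *Ppp1ca* (−3.14 to 0.03) lay mostly below 0, but they depend on the scaling. After median centring the log2 fold changes were −0.68 (SE 0.88) for *Ensa* and −0.60 (SE 0.75) for *Ppp1ca*.

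**Figure D1:**
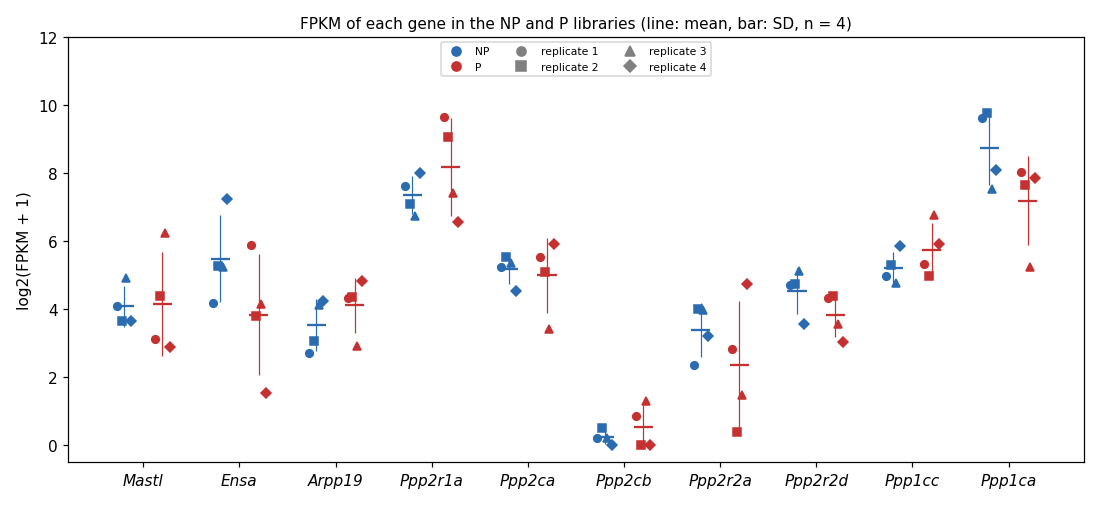
FPKM of the 10 genes in each library, as log2(FPKM + 1), with NP in blue and P in red, marker shapes for the replicate number, a line for the mean of 4 libraries and a bar for the SD. The P libraries of *Mastl*, *Ensa*, *Ppp2r1a* and *Ppp2r2a* spread widely, and the P and NP libraries of every gene overlap.

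**Figure D2:**
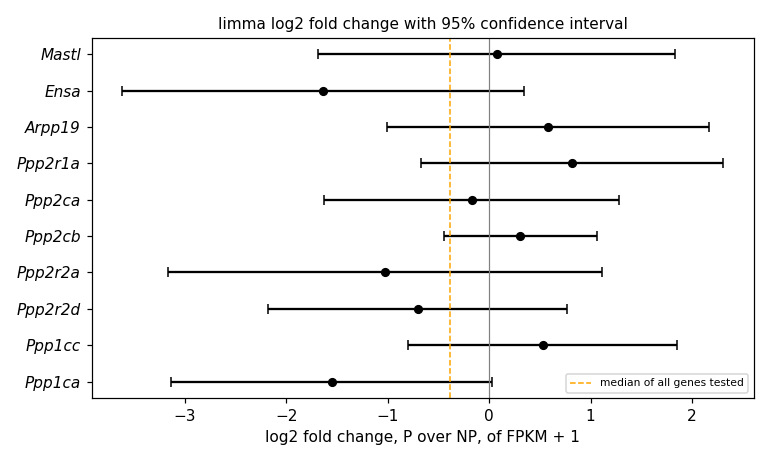
Log2 fold change (P over NP) of FPKM + 1 for the 10 genes, as points with 95% confidence intervals from limma, n = 4 libraries a dataset, with the median of all genes at −0.39 as a dashed line. Each interval crosses 0, and that of *Ppp1ca* (−3.14 to 0.03) only just does.

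*Mastl* (chr2:23115606-23156024, minus strand), the Greatwall kinase gene, was above 0 in all 8 libraries, and its P libraries reached both higher and lower than its NP libraries. Its FPKM was 16.1, 11.6, 29.4 and 11.7 in NP1 to NP4, and 7.66, 20.1, 74.1 and 6.46 in P1 to P4. P3 was the highest and P4 the lowest of all 8. The mean was 17.2 ± 8.40 FPKM in NP and 27.1 ± 31.9 in P (SD, n = 4), a P/NP ratio of 1.57 that became 0.663 without P3. The log2 fold change was 0.08 (SE 0.82), with a limma adjusted p of 0.971. It fell below 0 on leaving out P3 (−0.61), NP2 (−0.07), NP4 (−0.06) or P2 (−0.0037). The P values varied by 118% of their mean (CV), while the counts of 100 to 1903 reads behind them would give 6.71% from counting alone.

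*Ensa* (chr3:95624980-95632102) had the largest fitted difference among the 10, towards NP, and its NP libraries had the largest SD of log2(FPKM + 1) among the 10 (1.27). It had 17.2, 37.9, 36.7 and 149 FPKM in NP1 to NP4 and 58.1, 13.0, 16.6 and 1.90 in P1 to P4. NP4 was the highest and P4 the lowest of the 8 libraries, and P1 exceeded 3 of the 4 NP libraries. Means were 60.3 ± 60.0 FPKM in NP and 22.4 ± 24.6 in P (SD, n = 4), with a log2 fold change of −1.64 (SE 0.92) and a limma adjusted p of 0.549. The P/NP ratio of 0.372 became 0.733 without NP4 and 0.175 without P1. The 1.90 FPKM of P4 rested on 15 reads and the 149 FPKM of NP4 on 3339.

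*Arpp19* (chr9:75037614-75060313), the other substrate gene, was lower than *Ensa* in NP. Its FPKM was 5.50, 7.30, 16.5 and 17.8 in NP1 to NP4 and 19.1, 19.7, 6.58 and 27.1 in P1 to P4. P1, P2 and P4 were above all NP libraries, whereas P3 was below NP2. Means were 11.8 ± 6.27 and 18.1 ± 8.52 FPKM (SD, n = 4), with a log2 fold change of 0.58 (SE 0.74) and a limma adjusted p of 0.749. Leaving out any 1 library gave 0.30 to 0.98.

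Within a library, *Ensa* made up 75.8, 83.8, 69.0 and 89.3% of the summed FPKM of both substrate genes in NP1 to NP4. In P1 to P4 it made up 75.3, 39.8, 71.7 and 6.55%. *Ensa* thus held most of the sum in all 4 NP libraries and in P1 and P3, and *Arpp19* held most of it in P2 and P4. This share does not depend on how libraries are scaled to each other. The mean share was 79.5 ± 8.93% in NP and 48.3 ± 32.1% in P (SD, n = 4), a difference of −31.2 percentage points (P minus NP). The exact two-sided permutation test over the 70 assignments of libraries gave p = 0.114, and 0.286 after Benjamini-Hochberg adjustment over 5 shares. The smallest p this design can give is 0.029. Without P4 the difference was −17.3 points.

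The PP2A scaffold gene *Ppp2r1a* (chr17:20945311-20965916) was, with *Ppp1ca*, the most abundant mRNA of the 10. It had 194, 135, 106 and 255 FPKM in NP1 to NP4, and 805, 537, 169.6 and 93.9 in P1 to P4. P1 and P2 lay above all NP libraries, P3 among them and P4 below them. Means were 172.5 ± 66.5 and 401 ± 332 FPKM (SD, n = 4), with a log2 fold change of 0.82 (SE 0.70) and a limma adjusted p of 0.662. The P/NP ratio of 2.33 became 1.55 without P1. Within each library it stood between the 92.6 and 96.4 percentile of genes above 0 in NP, and between 88.0 and 99.1 in P. With 849 to 12773 reads in P libraries, counting alone would give a CV of 2.13%, and the observed CV was 82.6%. The second scaffold gene, *Ppp2r1b*, had means of 3.91 ± 3.76 and 5.59 ± 5.83 FPKM.

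*Ppp2ca* (chr11:52098681-52127778), a catalytic subunit gene of PP2A, had nearly equal means in both datasets. It had 36.7, 44.9, 40.3 and 22.3 FPKM in NP1 to NP4, and 45.7, 33.1, 9.79 and 59.5 in P1 to P4. P3 was the lowest and P4 the highest of the 8. Means were 36.1 ± 9.77 and 37.0 ± 21.1 FPKM (SD, n = 4). The log2 fold change was −0.17 (SE 0.68), with a limma adjusted p of 0.919, and it changed sign without P3 (0.35), after quantile normalization (0.14) and after median centring (0.79). The annotated exons of *Ppp2ca* overlap those of 9430098F02Rik on the other strand over up to 1798 bases. The libraries do not mark strand, so reads from this overlap could not be assigned to either gene by strand.

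*Ppp2cb* (chr8:33599621-33619794), which codes for an almost identical catalytic subunit, was near the detection limit. It had 0.172, 0.421, 0.150 and 0 FPKM in NP1 to NP4 and 0.816, 0, 1.48 and 0 in P1 to P4. The highest recovered read count of a library was 12. It was last of the 10 genes in all 8 libraries. *Ppp2ca* therefore carried 99.1 to 100% of the summed FPKM of both genes in NP, and 98.2, 100, 86.9 and 100% in P1 to P4. P3, in which *Ppp2ca* was lowest and *Ppp2cb* highest, was the only library below 98%, and the mean shares differed by −3.28 percentage points (exact permutation p = 0.457, adjusted 0.571). The ratio of the scaffold gene to both catalytic subunit genes was computed after the values had been seen, as a description. It was 5.27, 2.97, 2.61 and 11.5 in NP1 to NP4 and 17.3, 16.2, 15.0 and 1.58 in P1 to P4. P1, P2 and P3 were thus above all NP libraries, and P4 was below them.

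The B55 subunits give PP2A its specificity for CDK1 substrates, and 2 of their genes were followed. *Ppp2r2a* (chr14:67014057-67072471, minus strand) had 4.11, 15.1, 14.7 and 8.25 FPKM in NP1 to NP4 and 6.12, 0.309, 1.78 and 25.5 in P1 to P4. Its P libraries had the largest SD of log2(FPKM + 1) among the 10 (1.87), with P4 82.6-fold above P2, which rested on 4 reads. Means were 10.5 ± 5.31 and 8.44 ± 11.7 FPKM (SD, n = 4), with a log2 fold change of −1.03 (SE 0.998) and a limma adjusted p of 0.691. The P/NP ratio of 0.800 became 0.260 without P4.

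*Ppp2r2d* (chr7:138846079-138883057), the second B55 gene, was steadier. It had 25.0, 25.9, 34.1 and 10.8 FPKM in NP1 to NP4 and 19.1, 20.0, 10.8 and 7.21 in P1 to P4. The 3 highest libraries were NP1, NP2 and NP3, and P4 was the lowest. Means were 24.0 ± 9.69 and 14.3 ± 6.25 FPKM (SD, n = 4), with a log2 fold change of −0.71 (SE 0.69) and a limma adjusted p of 0.691. The change was 0.25 after median centring. Exons of *Ppp2r2d* overlap *Mapk1ip1* on the other strand over 195 bases, and *Mapk1ip1* itself ranged from 0 (P4) to 264 FPKM (NP4). *Ppp2r2a* made up 14.1 to 43.4% of the sum of both B55 genes in NP and 24.3, 1.52, 14.1 and 78.0% in P1 to P4. *Ppp2r2d* was thus the larger part in 7 of 8 libraries, all but P4. The mean share differed by −1.63 percentage points (exact permutation p = 0.943, adjusted 0.943). Another B55 gene, *Ppp2r2b*, was left out of this share. It had 5.66, 7.15, 13.2 and 9.81 FPKM in NP1 to NP4 and 6.73, 3.44, 6.55 and 32.3 in P1 to P4, and so exceeded both others in P4. The difference in the share of *Ppp2r2a* was positive without NP2 (0.240), NP4 (2.47), P1 (0.100), P2 (7.69) or P3 (3.48).

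*Ppp1ca* (chr19:4192158-4195419), a catalytic subunit gene of PP1, had the smallest unadjusted p of the 10 (0.0539 by limma). With a replicate block this p was 0.00966 by limma. The gene was higher in NP on average. It had 776, 859, 182 and 271 FPKM in NP1 to NP4 and 258, 201, 36.5 and 229 in P1 to P4. NP1 and NP2 stood far above the other 6, P3 far below them, and the other libraries of both datasets overlapped. Means were 522 ± 345 and 181 ± 99.0 FPKM (SD, n = 4), with a log2 fold change of −1.55 (SE 0.74) and a limma adjusted p of 0.507. Leaving out any 1 library gave −1.96 to −0.90. Exons of *Rad9a* on the other strand overlap it over up to 225 bases.

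*Ppp1cc* (chr5:122158278-122175273), coding for another catalytic subunit of PP1, had 30.2, 38.0, 26.0 and 56.6 FPKM in NP1 to NP4 and 39.0, 30.2, 108 and 58.9 in P1 to P4. P3 and P4 were the highest of the 8, and P1 and P2 lay within the NP range. Means were 37.7 ± 13.5 and 59.1 ± 35.0 FPKM (SD, n = 4), with a log2 fold change of 0.53 (SE 0.62) and a limma adjusted p of 0.731. These values are uncertain, since the transcript of *Ppp1ccb* matches that of *Ppp1cc* at 99.8% over 1438 bases and 3 processed pseudogenes match at 95.6 to 97%, so that reads could have been divided among them.

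Together with *Ppp1cb*, the third PP1 catalytic gene (means of 6.66 ± 5.16 FPKM in NP and 3.10 ± 2.08 in P), *Ppp1ca* made up 95.8, 95.7, 83.6 and 79.8% of the sum in NP1 to NP4 and 86.4, 86.4, 24.3 and 78.4% in P1 to P4. *Ppp1cc* made up 3.73, 4.23, 11.9 and 16.6% in NP and 13.1, 13.0, 72.0 and 20.2% in P. *Ppp1ca* was the main PP1 mRNA in all libraries except P3, where *Ppp1cc* was. The mean difference was −19.8 percentage points for *Ppp1ca* (exact permutation p = 0.229, adjusted 0.381) and 20.4 for *Ppp1cc* (exact permutation p = 0.114, adjusted 0.286). Without P3 the differences were −4.95 and 6.30 points.

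**Figure D3:**
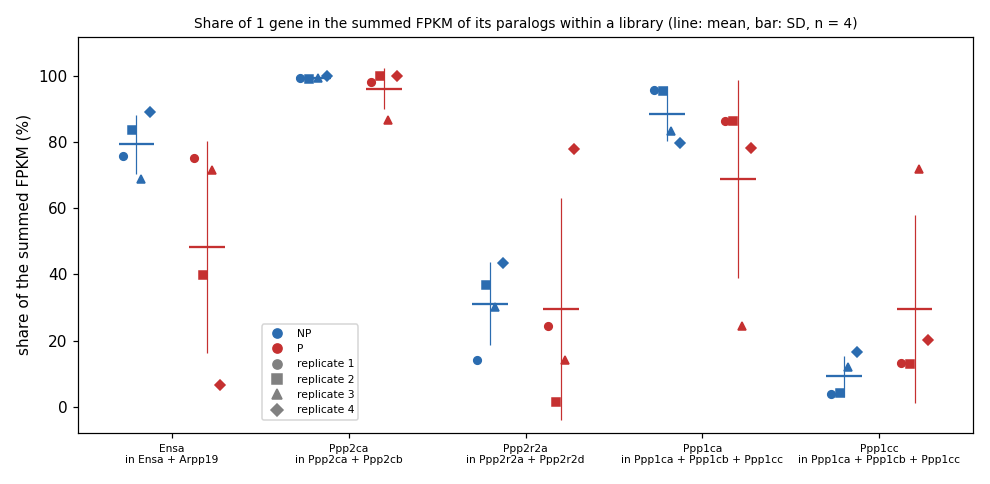
Share in percent of 1 gene in the summed FPKM of its paralogs within each library, for 5 shares, with NP in blue and P in red, a line for the mean of 4 libraries and a bar for the SD. P4 stands low for *Ensa* (6.55%) and high for *Ppp2r2a* (78.0%), and P3 stands low for *Ppp1ca* (24.3%) and high for *Ppp1cc* (72.0%).

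Over the 8 libraries the mean levels followed the order *Ppp1ca*, *Ppp2r1a*, *Ppp1cc*, *Ensa*, *Ppp2ca*, *Mastl*, *Ppp2r2d*, *Arpp19*, *Ppp2r2a* and *Ppp2cb*. *Ppp2r1a* was above *Ppp1cc*, and *Ppp2r2a* above *Ppp2cb*, in 8 of 8 libraries. *Ppp2ca* was above *Mastl*, and *Arpp19* above *Ppp2r2a*, in 7 of 8. The other neighbours changed places between libraries, each gene being above the next in 3 to 5 of 8. *Ppp1ca* was first in all 4 NP libraries, while *Ppp2r1a* was first in 3 of 4 P libraries.

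The libraries in which the 10 genes were extreme were mostly P3 and P4. P3 held the highest value of 3 genes and the lowest of 2, and P4 the highest of 3 and the lowest of 4. The 3 genes highest in P3 include the low *Ppp2cb*. Percentages over other genes were taken from the 11374 genes with a mean above 1 FPKM in at least 1 dataset, which leaves out *Ppp2cb*. Among these, P3 held the highest value of 11.1% of genes and the lowest of 16.9%. P4 held the highest of 12.3% and the lowest of 22.6%. The SD of log2(FPKM + 1) was larger in P than in NP for 8 of the 9 genes other than *Ppp2cb*, with medians of 1.31 in P and 0.68 in NP. Of all 7328 genes with a mean above 5 FPKM, 72.9% had the larger SD in P, with medians of 1.33 and 0.89.

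**Figure D4:**
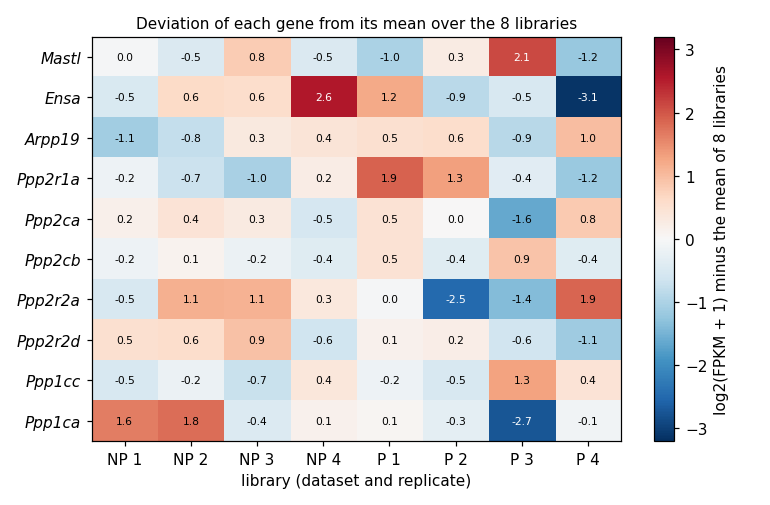
Deviation of log2(FPKM + 1) from the mean of the 8 libraries, for the 10 genes (rows) in each library (columns), red above and blue below the mean. *Mastl* is highest and *Ppp1ca* lowest in P3, and *Ensa* is highest in NP4 and lowest in P4.

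The genes other than *Ppp2cb*, which was left out here, did not move together from library to library. Pearson's r of log2(FPKM + 1) over the 8 libraries, given as a description, was lowest for *Ppp2r2d* with *Ppp1cc* (−0.806) and *Mastl* with *Ppp2ca* (−0.803). It was highest for *Ppp2ca* with *Ppp1ca* (0.694) and *Ppp2ca* with *Ppp2r2a* (0.559). The points share library and depth. Among 5638 genes with a mean above 10 FPKM, the pattern most like *Mastl* was that of *Gm505* (r = 0.968), *Dazl* (0.954) and *Eps15l1* (0.946). *Dazl* codes for a germ cell RNA-binding protein. It had 120.1, 140.5, 239 and 134 FPKM in NP1 to NP4 and 82.5, 229, 435 and 58.3 in P1 to P4. Genes named for likeness were picked for the highest r among many over only 8 libraries, so a high r is no separate result. The pattern of *Ensa* was most like *Arhgef7* (0.983), *Tspan5* (0.979) and *Acat1* (0.972). That of *Arpp19* was most like *Nars* (0.958), *Nlrp9c* (0.935) and *Cep57l1* (0.929).

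Of 50 other genes listed for PP2A, PP1 and the related phosphatases PP4, PP5 and PP6, 49 were in the table and 46 were tested. None was called by limma or by voom on recovered reads. In the limma test 4 of the 46 had an unadjusted p below 0.05, as had 9.95% of all genes. All 4 were higher in NP, and of all genes 9.47% passed this level higher in NP and 0.476% higher in P. Voom tested 41 of the listed genes, and 5 had an unadjusted p below 0.05, against 1049 of all 9352 genes in that setting. Of the 46, 17 had a log2 fold change above 0 and 29 below, with a median of −0.28. *Ppp2r3c*, a regulatory subunit gene of the B″ class, was the only gene of the list with all P libraries above all NP libraries, as were 0.357% of all genes. It had 6.93, 19.6, 16.1 and 3.74 FPKM in NP1 to NP4 and 28.2, 27.5, 23.2 and 27.9 in P1 to P4, with a log2 fold change of 1.36 (SE 0.70) and a limma adjusted p of 0.528. *Ppp2r5e*, of the B56 regulatory class, was the only one with all NP libraries above all P libraries, as were 5.92% of all genes. It had 1.56, 2.24, 12.6 and 4.05 FPKM in NP and 0.266, 0.130, 1.17 and 0 in P, with a log2 fold change of −1.88 (SE 0.74) and a limma adjusted p of 0.440. All 5 B56 genes had a fold change below 0 (median −1.27, 0 called), as did 71.4% of all genes. The change of 1 of the 5 was above 0 after median centring (median −0.31) and likewise without P4 (median −0.53).

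The most abundant of the other listed genes also overlapped between the datasets. Means in NP and P were 134 ± 77.4 and 51.0 ± 20.2 FPKM for the B56 gene *Ppp2r5d*, and 104 ± 58.7 and 161 ± 49.9 for the striatin gene *Strn*. They were 34.0 ± 10.4 and 70.6 ± 37.5 for *Ppme1*, whose product removes the methyl group of the PP2A catalytic subunit. They were 223 ± 80.6 and 172 ± 104 for *Bod1*, coding for an inhibitor of PP2A with a B56 subunit, and 73.6 ± 43.1 and 232 ± 230.3 for *Ppp1r10*, coding for a PP1 nuclear targeting subunit. The PP4 catalytic subunit gene *Ppp4c* had 203 ± 83.5 and 189.9 ± 253 FPKM (SD, n = 4 in each). Limma adjusted p-values of these 6 genes were 0.518 or higher.

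**Figure D5:**
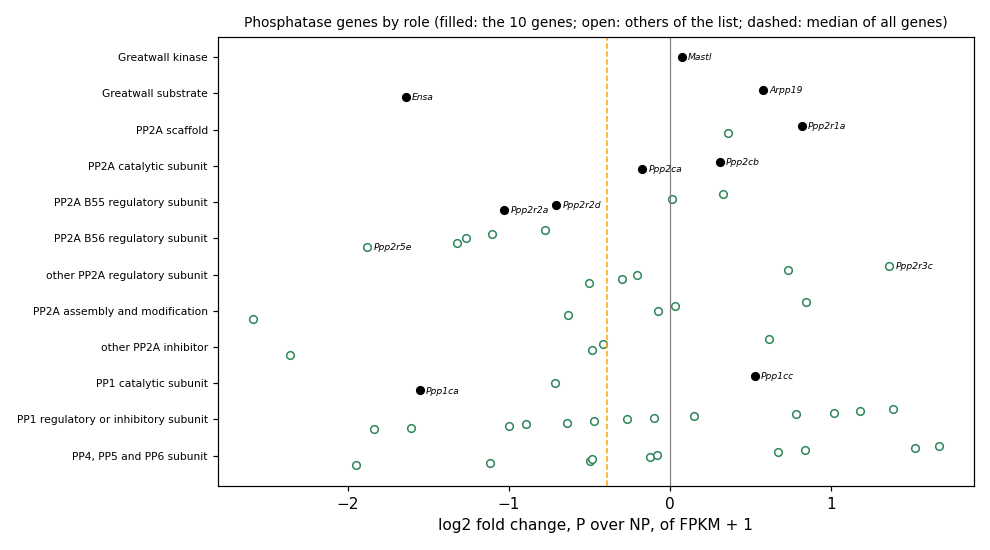
Log2 fold change (P over NP) of FPKM + 1 for the phosphatase genes tested, arranged by role, with the 10 genes as filled and the other listed genes as open circles. The median of all genes (−0.39) is the dashed line, and the listed genes lie on both sides of 0 in most roles.

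In maturing oocytes, cytoplasmic polyadenylation elements near the 3′ end of an mRNA, read by the CPEB protein, are known to regulate polyadenylation and translation. The last 150 bases of 1 annotated transcript per gene were searched on the transcribed strand. A common form of the element, TTTTAT, was found in 2 of the 10 genes, against 19.6% of all 10334 genes searched. A longer form, TTTTAAT, was found in 0 of the 10, against 7.33%. The polyadenylation signal, AATAAA, whose letters can overlap those of the longer form, was found in 7 of the 10, against 66.4%. The matches are shown with the motif in capitals, since they are the only ones of either element among the 10 genes, and a match is no proof of a working site.
Arpp19: atggatctacctaatTTTTATtgattttaa
Ppp2r1a: caattgtgccatTTTTATtttattcctttc
The run of *Arpp19* is chr9:75060284-75060313 and that of *Ppp2r1a* chr17:20965841-20965870, both in the 3′ untranslated region on the plus strand of GRCm38. The motif is followed by 9 bases in *Arpp19* and by 58 in *Ppp2r1a* up to the annotated end. *Ppp2r1a* has a second match that overlaps the first in its last letter. AATAAA is followed by 29 bases in *Arpp19* and by 23 in *Ppp2r1a*. The element thus lies downstream of this signal in *Arpp19* and upstream of it in *Ppp2r1a*. The 2582 genes with either element had a median log2 fold change of −0.36 and the 7752 genes without one −0.41. The 3′ ends used in oocytes were not known here.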

How the data were processed

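The 8 libraries are the 4 NP and 4 P libraries of NEBD-stage oocytes, named and numbered by their titles, and the authors described them as independent biological replicates. The pooled RNA was depleted of rRNA, primed with oligo(dT) and random hexamers, amplified with REPLI-g WTA and made into Nextera libraries, which do not mark strand. Reads were trimmed (Trim Galore 0.4.1), inspected (FastQC 0.11.5) and aligned to the GRCm38 assembly (Hisat2 2.0.5) by the authors. FPKM values per gene were then computed by the authors in Seqmonk and deposited for each library on a linear scale. The annotation and the strand setting were not given in the sources used here. The deposited means of each dataset differed from the means of the libraries by at most 0.000575 FPKM. A deposited list of expressed genes and a deposited table of the authors' own DESeq2 comparison (fold changes and p-values) were not used.

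The test was limma 3.58.1 (lmFit and eBayes with a trend, R 4.3.3) on log2(FPKM + 1), leaving out genes whose mean exceeded 0.1 FPKM in neither dataset, two-sided, with Benjamini-Hochberg adjustment over all 14292 genes and a threshold of 0.1. A fold change on this scale understates the change of low genes. P-values use the spread between the 4 libraries of a dataset. Shares of paralogs were compared by exact permutation tests (SciPy 1.17.1). Whole reads were recovered from the FPKM steps for 15559 of 15585 genes above 0 (99.8%), to within 0.01 of a read, with annotated exon lengths (6959 genes) or the smallest length between 100 and 30000 bases that gave whole reads (8600). The sources used here do not say if these are single reads or read pairs. Counting CVs cover counting error only, since amplified copies are not independent molecules. Transcripts came from GENCODE vM21 on GRCm38, taking for each gene the one with the longest coding sequence, and near-identical copies were searched with blastn 2.17.0 (at least 95% identity over 150 bases). The scripts were tested on simulated data.

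The 10 genes, the lists and the tests were chosen with earlier results of these data known. Named from the other phosphatase genes were those called, those without overlap between P and NP, and the most abundant gene of each role, and for *Mastl*, *Ensa* and *Arpp19* the 3 genes most like each. Alternatives were another pseudocount, other filters, 2 other scalings, a block for the replicate number, no trend, a log ratio in place of the share, each library left out in turn, and voom on the recovered reads.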

Additional observations from a re-analysis of the deposited data

Results flagged for a closer look

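4 values of 30 groups of 4 libraries stood apart by Dixon's criterion at the 95% level, which chance exceeds in about 1 of 20 groups, and all 4 came from P3. The *Ppp1ca* level of 36.5 FPKM in P3 was far below those of the other P libraries, with a gap to the nearest of them of 0.872 of the range on the log2 scale. The *Ppp2ca* share of 86.9% in P3 was the lowest of its dataset (gap 0.866 of the range). In the same library *Ppp1ca* held 24.3% of the summed PP1 catalytic FPKM (gap 0.871) and *Ppp1cc* held 72.0% (gap 0.878). Both PP1 shares come from the same sum and are not independent of each other or of the *Ppp1ca* level.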

How the results depend on the processing

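No gene of the 10 was called at an adjusted p of 0.1 in any of the settings, the smallest adjusted p being 0.122 (*Ppp2cb* after median centring, limma). The fold changes of *Ensa*, *Arpp19*, *Ppp2r1a*, *Ppp2cb*, *Ppp2r2a*, *Ppp1cc* and *Ppp1ca* kept their sign in all settings run for them, *Ppp2cb* having no value with a filter of mean FPKM above 1 or with voom. The fold change of *Mastl* was −0.61 to 0.50 over the libraries left out in turn, 0.56 after quantile normalization and 1.03 after median centring. Median centring also gave −0.68 for *Ensa*, 1.54 for *Arpp19*, 1.78 for *Ppp2r1a*, −0.07 for *Ppp2r2a*, 1.27 for *Ppp2cb*, 1.49 for *Ppp1cc* and −0.60 for *Ppp1ca*. That of *Ppp2ca* was −0.48 to 0.35, 0.14 after quantile normalization and 0.79 after median centring, and that of *Ppp2r2d* was 0.25 after median centring. The share of *Ppp2r2a* differed by −17.8 to 7.69 percentage points over the libraries left out. The cause was not tested. No share passed the threshold in any setting. Over 4 pairs the smallest p possible is 0.125, which both PP1 shares reached in the exact paired test, so that setting could not pass. In the unpaired permutation test, 1 share alone at the smallest p of 0.029 would not pass either after adjustment over 5 shares. With a library left out, the smallest p possible is larger still. Of all genes, 3 were called, against 5 with a pseudocount of 0.1, 5 with a mean FPKM above 1, 0 without a filter, 0 after quantile normalization, 0 after median centring, 20 without a trend and 5 with voom on the recovered reads, an alternative chosen after seeing the data. Without 1 library the count was 0 to 5. Libraries of the same number deviated from their dataset means with a correlation of 0.139, 0.0518, 0.251 and 0.155 (11374 genes). The authors drew both pools from the same 4 oocyte profiles, but no source states that a number marks 1 gradient. The main tests therefore did not take the numbers as pairs, and if they are pairs, these tests ignore the pairing. Each P library correlated best with the NP library of its own number, whereas NP2 correlated better with P1 (0.136) than with P2. A fit with a replicate block called 1 gene, which was none of the 10, and gave *Ppp1ca* a log2 fold change of −1.55 (SE 0.51) with an unadjusted limma p of 0.00966 and an adjusted p of 0.326. The unadjusted limma p of *Ppp1ca* was below 0.05 in 7 of 16 alternatives, this one included, with adjusted p-values of 0.326 or more. In these 7 settings, 1244 to 1734 of the 11374 to 14292 genes tested had such a p. The alternatives reuse the same 8 libraries and are not separate evidence, and *Ppp1ca* had the smallest p of the 10 in the main fit. Recovered read counts were low for *Ppp2cb* (12 in its highest library), *Ppp2r2a* in P2 (4) and *Ensa* in P4 (15), although NP2 was the shallowest library.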
